A study of Mus musculus with 9 samples.

Results

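DNA methylation around 8 pluripotency genes, *Nanog*, *Zfp42*, *Klf2*, *Utf1*, *Dppa3*, *Dppa5a*, *Gdf3* and *Fgf4*, was compared between *Dnmt3a* KO and *Dnmt3b* KO mouse embryonic stem cells (ESCs). The 8 were taken by name, lie on chromosomes 6, 7, 8 and 9, and were measured among 22219 protein-coding genes placed on mm9. For each gene, all CpGs from 10 kb upstream to 5 kb downstream of the transcript were taken, so that position and not a measured value chose them. The study profiled J1 ESCs, a line of strain 129S4/SvJae, by whole genome bisulfite sequencing (WGBS), in which an unmethylated cytosine is read as thymine. There were 9 libraries, 3 each of wild type, Dnmt3a-/- and Dnmt3b-/- cells, and the authors merged the 3 libraries of each genotype into 1 table. The cells were grown with serum and LIF on gelatin-coated dishes and had similar passage numbers. Whether each knockout line is 1 clone is not given in the sources used here. The wild type was not analysed here on these chromosomes, so the values compare the knockouts with each other and do not say how far either differs from wild type.

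DNMT3A and DNMT3B are the enzymes that place new methyl groups on CpGs, and DNMT1 copies the marks when DNA is replicated. Cells without *Dnmt3a* keep DNMT3B and DNMT1, and cells without *Dnmt3b* keep DNMT3A and DNMT1. Pluripotency in mouse ESCs rests on a network of transcription factors that bind enhancers around each other's genes, and promoters and enhancers in use are commonly low in CpG methylation. No expression was measured in these tables.

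Each value is the share of methylated reads, that is, methylated reads divided by all reads, over the CpGs with at least 3 reads in both knockouts. Where a pair of values is given, *Dnmt3a* KO comes first and *Dnmt3b* KO second, and a difference is *Dnmt3b* KO minus *Dnmt3a* KO in percentage points. Intervals in parentheses are 95% intervals, Wilson for a share and Newcombe for a difference. Since each genotype is 1 pooled value, there is no replicate error, no test across samples was possible, and the intervals cover counting error only. Reads were summed over CpGs, so a read that spans several CpGs is counted at each of them. Such counts are not independent. For values over several CpGs, the intervals and the upper limits given beside 0 methylated reads are therefore too narrow. The median covered CpG had 20 reads in both tables. Over the genome, the mean of CpG ratios was 49.9% in *Dnmt3a* KO cells and 75.1% in *Dnmt3b* KO cells. The share of methylated reads, the measure used for the genes, was 61.1% and 81.3% there. Reads were missing over 12 CpGs in exons 18 to 19 of *Dnmt3a* in the *Dnmt3a* KO table, where the *Dnmt3b* KO table held 16.8 reads per CpG. In the *Dnmt3b* KO table they were missing over 30 CpGs in exons 18 to 21 of *Dnmt3b*, where the *Dnmt3a* KO table held 26.4 reads per CpG. On the mitochondrial genome, 0.255% and 0.290% of reads were unconverted.

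At the transcription start site (TSS), *Klf2*, *Utf1* and *Fgf4* differed between the knockouts by less than 2 points, and *Nanog*, *Dppa5a* and *Dppa3* by 16.0 to 29.8 points. *Gdf3* (4.55 points) and *Zfp42* (9.16 points) lay between, and their order depended on the setting. With at least 10 reads per CpG they had 4.60 and 4.57 points, and within 500 bp of the TSS 8.26 and 1.51 points. The differences of *Nanog* and *Dppa5a* also changed with the window, to 10.3 and 10.5 points within 500 bp and to 27.7 and 22.1 points within 2000 bp, where both passed 20 points. Within 1 kb of the TSS, 7 of 8 genes had less methylation in *Dnmt3a* KO ESCs with an interval of the difference above 0, and *Klf2* did not. Of the 21776 genes with at least 5 CpGs there, 83.8% had such an interval, so the count is near the background. *Dppa3* alone among the 8 differed there by more than 20 percentage points, the size used as a call, against 33.3% of genes. In the other direction the count was 0 of 8, against 0.00459% of genes. The median difference was 6.86 points over the 8 genes and 8.60 points over all genes. Upstream of the TSS it was 33.1 and 27.9 points, and downstream of the transcript 31.5 and 26.9 points. Promoter CpG content, a class set from the sequence alone, was high for *Klf2*, *Utf1* and *Fgf4* and intermediate for the other 5. Over all genes of these classes, the median difference was 2.34 points with high and 16.9 points with intermediate CpG content. *Nanog* and *Dppa5a* lay near the median of their class, *Dppa3* above it, and *Gdf3* and *Zfp42* below it.

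**Figure D1:**
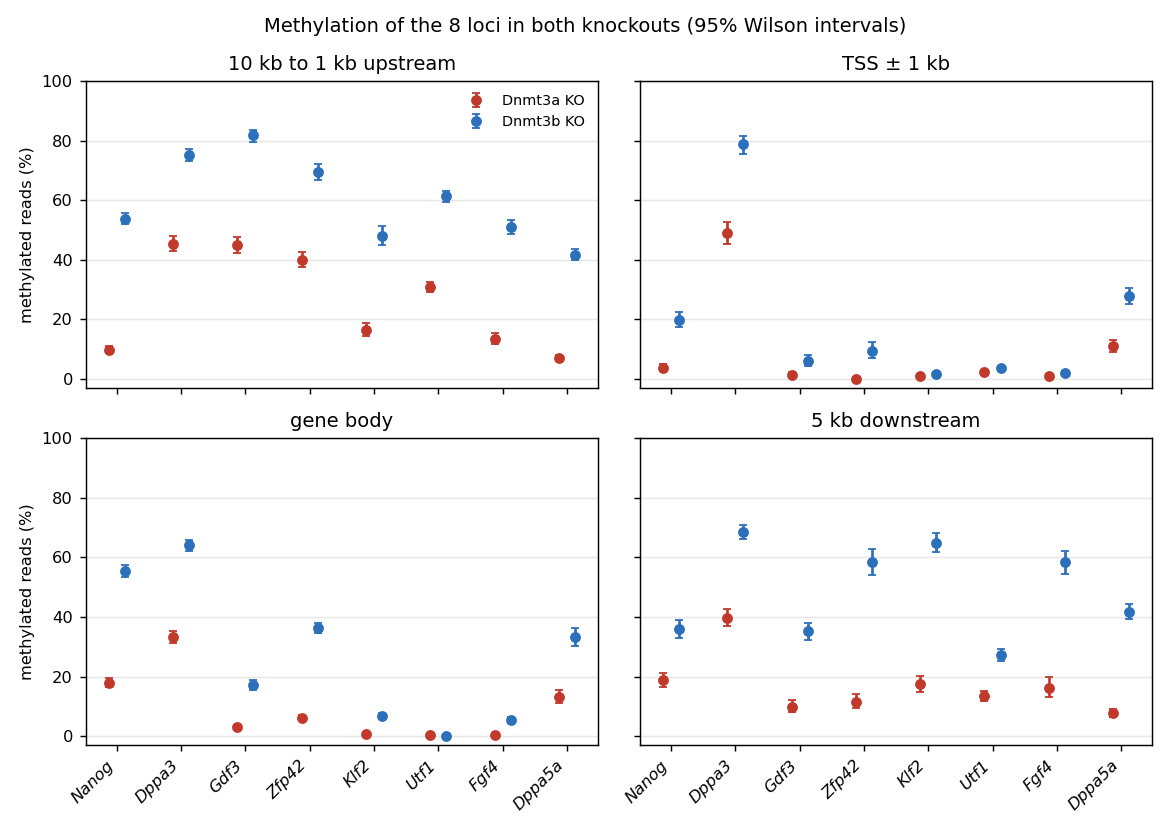
Share of methylated reads (%) of the 8 genes in 4 regions, *Dnmt3a* KO in red and *Dnmt3b* KO in blue. Points are pooled values of 3 merged libraries and bars are 95% Wilson intervals, which cover counting error only. Upstream, the red point lies below the blue one for 8 of 8 genes, against 99.96% of all genes, and at the TSS *Dppa3* stands apart at 49.1% and 78.9%.

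Over the transcript, from TSS to end, 4 of 8 genes (*Nanog*, *Dppa3*, *Zfp42* and *Dppa5a*) differed by more than 20 points, against 74.9% of all genes. *Dppa5a* passed narrowly, with 20.3 points. It lost the call on the plus strand alone (14.4 points), without CpGs whose strands differed (18.2 points) and as a mean of CpG ratios (17.0 points), and all of its transcript CpGs have near-identical copies. The median difference was 17.2 points for the 8 genes and 25.1 points for all genes. The levels themselves were low, since the median over the 8 transcripts was 4.57% in *Dnmt3a* KO cells and 25.2% in *Dnmt3b* KO cells, against 48% and 75.1% over all genes. The transcripts run from 1126 bp (*Dppa5a*) to 11942 bp (*Zfp42*), and the first 1 kb of each lies in the TSS window. Without it the median difference of the 8 was 25.7 points, on only 2 CpGs at *Dppa5a* and 11 at *Utf1*. The value of all genes without it is not given, and transcript lengths were not matched. In the stretch from 10 kb to 1 kb upstream, 8 of 8 genes passed 20 points, against 83.0% of all genes. In the 5 kb downstream, 6 of 8 passed, against 78.8%, with *Nanog* and *Utf1* below the limit. Upstream, the median levels were 23.6% and 57.6% for the 8 genes and 48.8% and 79.0% for all genes. In transcripts and downstream stretches, each of the 8 lay below the median gene in both knockouts.

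Ranked by the level at the TSS, neighbouring genes were compared by the overlap of their intervals. Genes further apart in a run of overlaps could still have separate intervals. In *Dnmt3a* KO ESCs *Zfp42* (0.0252 to 0.802) and *Nanog* (2.70 to 5.03) did. In *Dnmt3a* KO ESCs the intervals of neighbours overlapped from *Zfp42*, the lowest, through *Fgf4*, *Klf2*, *Gdf3* and *Utf1* to *Nanog*, and *Dppa5a* and then *Dppa3* stood above them. In *Dnmt3b* KO ESCs *Klf2* and *Fgf4* were lowest and overlapped, as did *Utf1*, *Gdf3* and *Zfp42* as neighbours, followed by *Nanog*, *Dppa5a* and *Dppa3*, each apart from the one before it. The place of *Dppa5a* rests on CpGs with near-identical copies elsewhere in mm9. Without them it held 1.19% and 18.6% on 14 CpGs, below the values of *Nanog* in both knockouts. No interval was computed for these values, so the order of *Dppa5a* and *Nanog* is not settled.

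**Figure D2:**
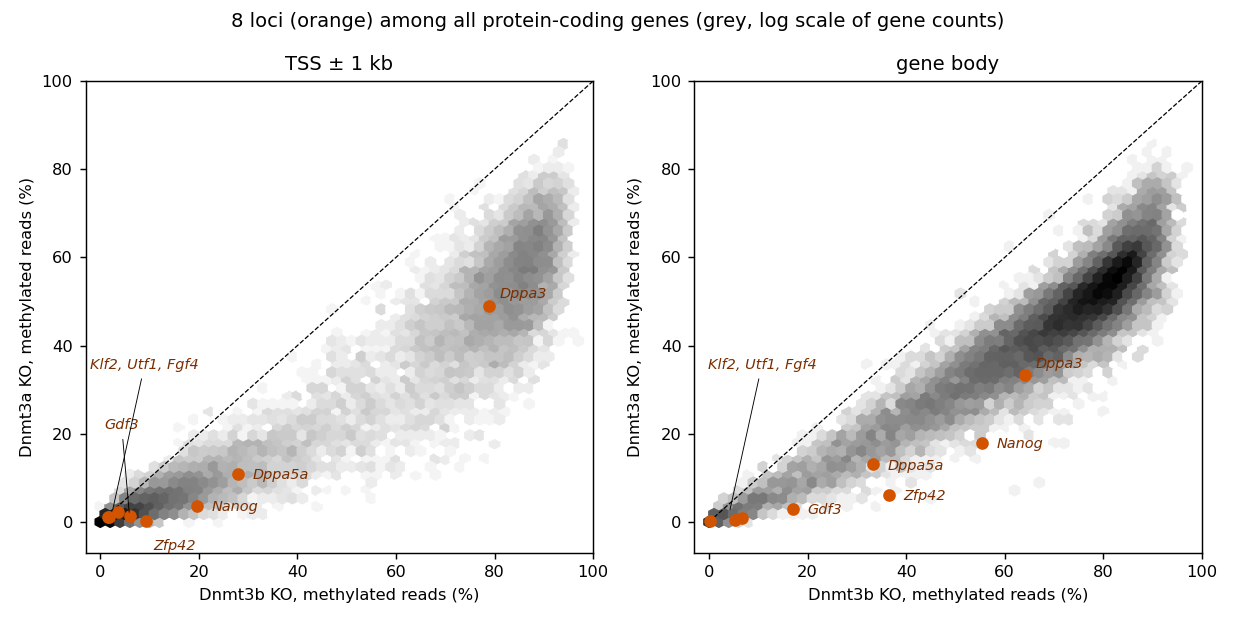
Share of methylated reads (%) in *Dnmt3a* KO against *Dnmt3b* KO ESCs, within 1 kb of the TSS (left) and over the gene body (right). Grey hexagons count protein-coding genes on a log scale, orange points are the 8 genes, and the dashed line marks equal levels. In the body panel *Nanog* (17.9% and 55.4%) and *Zfp42* (6.18% and 36.5%) lie at the lower edge of the grey cloud (*Nanog* 7.85% and 43.4% without CpGs in copies), and at the TSS *Dppa3* lies within it.

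*Nanog* encodes a homeodomain transcription factor at the core of the pluripotency network. The transcript used lies at chr6:122657586-122664651 on the plus strand and has 4 exons. Its promoter is shown because it was low in both knockouts. It is printed from -300 to -80 relative to the TSS, in mm9, with the CpGs in capitals, and ends where an alternative RefSeq start begins.

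*Nanog* promoter, chr6:122657286-122657506, plus strand: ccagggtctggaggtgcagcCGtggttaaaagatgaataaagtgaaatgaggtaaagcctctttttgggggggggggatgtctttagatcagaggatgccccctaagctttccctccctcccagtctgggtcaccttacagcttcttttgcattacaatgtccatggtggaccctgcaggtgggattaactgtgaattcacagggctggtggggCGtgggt

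The 2 CpGs of this stretch had 0 of 29 methylated reads in *Dnmt3a* KO, which allows a share of up to 10.3%, and 7.32% of 41 reads in *Dnmt3b* KO ESCs. Within 1 kb of the TSS, 33 CpGs gave 3.69% (2.70 to 5.03) in *Dnmt3a* KO cells and 19.7% (17.3 to 22.4) in *Dnmt3b* KO cells, a difference of 16.0 points (13.3 to 18.8). A region of low methylation was present in both, and it was narrower in *Dnmt3b* KO ESCs. The bin of 500 bp just upstream of the TSS held 2.23% in *Dnmt3b* KO, while the bin starting at -1000 bp held 32.8% and the bin starting at 0 held 22.8%. The same bins held 0 of 137 reads (up to 2.19%), 1.28% and 7.23% in *Dnmt3a* KO ESCs.

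Further from the TSS, the *Nanog* locus had the largest upstream difference of the 8 genes with all CpGs counted. Without the CpGs in near-identical copies, 51 of 126, it was 35.3 points and those of *Zfp42*, *Gdf3* and *Fgf4* were larger, at 40.6, 37.5 and 36 points. The *Zfp42* value then rests on 27 of 132 CpGs and describes only a part of its upstream stretch. From 10 kb to 1 kb upstream of *Nanog*, with all CpGs, 9.80% (8.77 to 10.9) of reads were methylated in *Dnmt3a* KO cells and 53.8% (52.0 to 55.6) in *Dnmt3b* KO cells. The difference of 44.0 points exceeded that of 98.6% of all genes. In *Dnmt3a* KO ESCs 1.36% of genes had a lower upstream level, and in *Dnmt3b* KO ESCs 12.9% did. The transcript held 17.9% (16.4 to 19.5) and 55.4% (53.4 to 57.3), a difference of 37.5 points that exceeded that of 97.0% of genes. Without 34 CpGs in near-identical copies it held 7.85% and 43.4%. The bin starting at -2500 bp gave the largest difference of any bin at the 8 loci, 5.85% against 87.1% over 12 CpGs (81.2 points, 74.6 to 85.8). A single CpG was called where the 95% credible interval of its difference lay beyond 0.2 on the scale from 0 to 1. Regions of at least 4 consecutive called CpGs, each within 300 bp of the next, numbered 9 at *Nanog*. The region with the most CpGs (10) is shown without its outer bases.

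*Nanog* upstream region, chr6:122655046-122655345, plus strand, -2540 to -2241 from the TSS: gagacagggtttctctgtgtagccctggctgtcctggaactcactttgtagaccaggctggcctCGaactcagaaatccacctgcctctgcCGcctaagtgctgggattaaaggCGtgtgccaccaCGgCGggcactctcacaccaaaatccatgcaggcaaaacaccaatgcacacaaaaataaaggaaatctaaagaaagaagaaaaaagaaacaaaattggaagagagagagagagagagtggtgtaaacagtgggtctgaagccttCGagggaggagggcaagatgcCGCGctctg

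Its 8 CpGs held 6.56% of 122 reads in *Dnmt3a* KO cells and 90.3% of 134 reads in *Dnmt3b* KO cells. Single CpGs ranged from 0 to 18.8% in the first and from 77.8% to 100% in the second, values that describe the region and were used to choose it. Of its 300 bases, 92 lie in exact matches of at least 50 bases elsewhere in mm9, where reads can be shared. A neighbouring region has no such match, and is shown for that reason.

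*Nanog* upstream region, chr6:122654278-122654535, plus strand, -3308 to -3051 from the TSS: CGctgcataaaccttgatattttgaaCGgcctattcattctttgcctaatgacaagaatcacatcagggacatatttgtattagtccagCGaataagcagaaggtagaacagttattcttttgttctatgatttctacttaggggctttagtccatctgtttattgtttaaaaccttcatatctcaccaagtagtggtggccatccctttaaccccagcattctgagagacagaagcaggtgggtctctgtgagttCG

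Here 3.00% of 100 reads were methylated in *Dnmt3a* KO cells and 71% of 93 reads in *Dnmt3b* KO cells, with single CpGs up to 8.33% in the first and from 60.7% in the second. The 2 regions farthest upstream lie inside *Gm10224*, an annotated pseudogene, from -9204 to -8518 bp.

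The *Nanog* locus also held stretches that were low in both knockouts. The bin starting at -5000 bp had 0.346% in *Dnmt3a* KO cells and 2.02% in *Dnmt3b* KO cells over 12 CpGs, and its interval of the difference included 0 (-0.286 to 4.32 points). Its upstream neighbour held 1.62% and 19.1%, and the bin starting at -4500 bp held 0.503% and 6.62%. Downstream of the gene, the bin starting at 8500 bp held 5.38% and 1.26%. This bin, with 7 CpGs, was the single bin of 248 at the 8 loci where *Dnmt3a* KO was higher with an interval apart from 0 (-7.53 to -0.961 points).

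**Figure D3:**
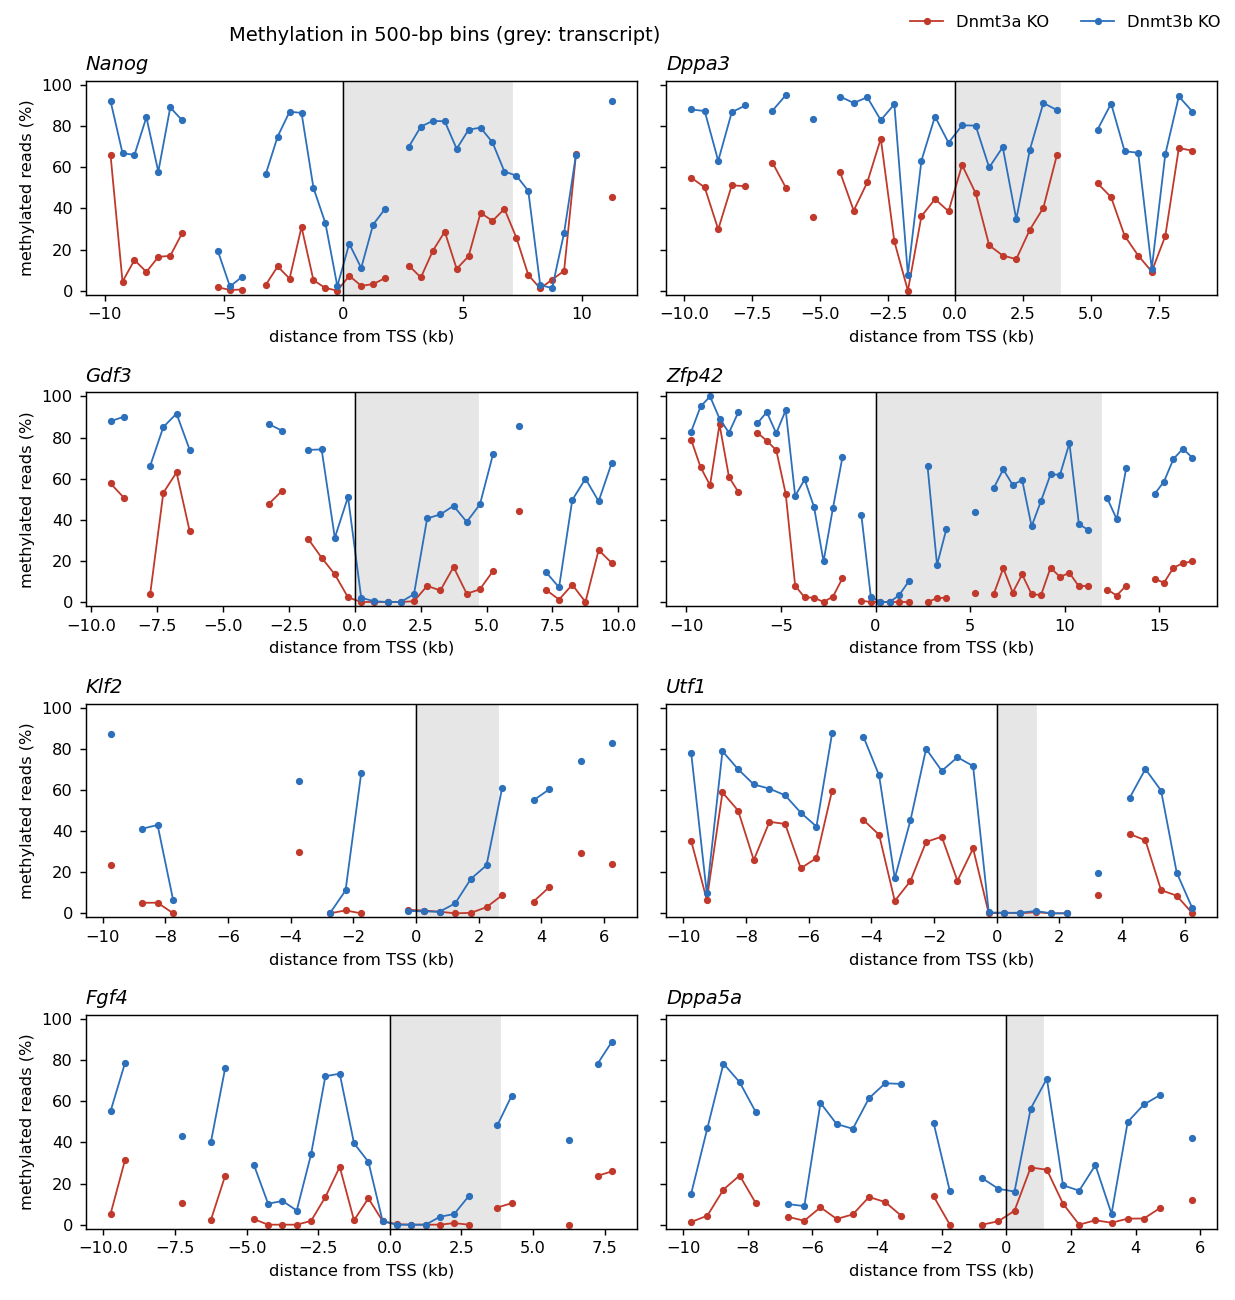
Share of methylated reads (%) in bins of 500 bp with at least 3 CpGs, by distance from the TSS (kb), with the transcript in grey. Red is *Dnmt3a* KO and blue is *Dnmt3b* KO, and lines are broken where a bin had fewer CpGs. The blue line lies above the red one in 231 of 248 bins. The curves meet near 0 at the TSS of *Klf2*, *Utf1*, *Fgf4* and *Zfp42*, and inside *Gdf3*. Bins in the 3678 bp shared by the *Gdf3* and *Dppa3* windows count for both genes. The share over bins of other genes was not computed. By region, *Dnmt3a* KO was lower for 99.96% of all genes upstream, 99.2% over the transcript and 94.7% at the TSS.

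*Zfp42*, also known as *Rex1*, encodes a zinc finger protein used as a marker of undifferentiated ESCs. Its transcript lies at chr8:44380422-44392363 on the minus strand with 4 exons. The bases just before the TSS are shown because no methylated read was found there in either knockout.

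*Zfp42* promoter, chr8:44392364-44392663, minus strand: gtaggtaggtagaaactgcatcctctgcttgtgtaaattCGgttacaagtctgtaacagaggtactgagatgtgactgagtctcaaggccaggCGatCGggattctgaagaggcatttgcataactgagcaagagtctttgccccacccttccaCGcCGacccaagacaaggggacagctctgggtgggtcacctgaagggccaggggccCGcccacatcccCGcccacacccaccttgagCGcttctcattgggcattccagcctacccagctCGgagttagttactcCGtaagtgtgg

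Of its 10 CpGs, 8 had enough reads, with 0 of 104 methylated in *Dnmt3a* KO (up to 2.88%) and 0 of 82 in *Dnmt3b* KO ESCs (up to 3.66%). In the TSS window the shares were 0.142% (0.0252 to 0.802) and 9.31% (6.98 to 12.3), and the methylated *Dnmt3b* KO reads thus lay outside the printed bases. In that knockout the bin starting at -1000 bp held 42.2%, against 0.602% in *Dnmt3a* KO ESCs. Of all genes, 1.87% had a lower TSS share than *Zfp42* in *Dnmt3a* KO cells and 40.5% had one in *Dnmt3b* KO cells.

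The low region of *Zfp42* extended far into the gene in *Dnmt3a* KO ESCs. Over the transcript the shares were 6.18% (5.47 to 6.98) and 36.5% (34.8 to 38.2), a difference of 30.3 points. The bin starting at 2500 bp had 0 of 116 methylated reads (up to 2.59%) in *Dnmt3a* KO cells and 65.9% in *Dnmt3b* KO cells. In the 5 kb downstream, 11.6% and 58.5% differed by 46.9 points, more than in 99.2% of genes. Upstream, *Dnmt3a* KO ESCs had an abrupt edge, with 52.6% in the bin starting at -5000 bp and 7.89% in the next, where *Dnmt3b* KO ESCs had 93.3% and 51.6%. Beyond this edge the differences were uneven, from 2.87 points (-7.36 to 13.3) in the bin starting at -8500 bp, with 86.4% and 89.3%, to 43.2 points (28.6 to 57.8) in the bin starting at -9000 bp, with 56.8% and 100%. The bin at the edge rested on 19 and 15 reads, and coverage of the upstream stretch was 11.3 and 9.52 reads per CpG, the lowest among the 8 genes, and 105 of the 132 CpGs used there lie in near-identical copies. The 27 CpGs left without them held 3.70% and 44.3%, against 40.0% and 69.5% for the whole upstream stretch. The high *Dnmt3a* KO levels upstream thus rest on CpGs in copies.

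*Klf2* encodes a Krüppel-like transcription factor of the naive network. It lies at chr8:74842932-74845555 on the plus strand with 3 exons, behind a promoter of high CpG content. Within 1 kb of the TSS, 144 CpGs gave 1.12% (0.778 to 1.60) and 1.60% (1.15 to 2.22), and the difference of 0.481 points had an interval that included 0 (-0.180 to 1.19). The knockouts parted at the 3' side of the gene. In *Dnmt3b* KO ESCs the bins starting at 1000, 1500, 2000 and 2500 bp held 4.86%, 16.7%, 23.4% and 61.1%, while in *Dnmt3a* KO ESCs they held 0 of 497 reads (up to 0.604%), 0.224%, 2.99% and 8.82%. In the 5 kb downstream the shares were 17.5% and 64.9%, and the difference of 47.5 points exceeded that of 99.3% of genes. On the other side, the bin starting at -2000 bp had 0 of 71 methylated reads (up to 4.23%) in *Dnmt3a* KO cells and 68.2% of 44 reads in *Dnmt3b* KO cells. In the bin starting at -3000 bp neither knockout had a methylated read, with 58 and 51 reads in all, which allows up to 5.17% and 5.88%.

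*Utf1* encodes a chromatin-bound factor found in undifferentiated ESCs, and lies at chr7:147129755-147131011 on the plus strand. Its transcript differed least of the 8. At its TSS the shares were 2.29% (1.71 to 3.05) and 3.64% (2.98 to 4.44), and over the transcript 0.281% (0.120 to 0.656) and 0.239% (0.110 to 0.521). The transcript difference of -0.0416 points had an interval that included 0 (-0.439 to 0.283). The level dropped between the same bins in both knockouts. The bin starting at -1000 bp held 31.6% and 71.7%, and the next bin, up to the TSS, held 0 of 248 reads (up to 1.21%) and 0.483%. From 10 kb to 1 kb upstream, the shares were 30.8% and 61.3%, and this stretch lies mostly in the 3' part of *Kndc1*, which runs on the same strand and ends at -2319 bp. The 1 region at *Utf1*, from -2598 to -2365 bp with 7 CpGs at 22.1% and 81.5%, lies within the last exon of *Kndc1*.

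*Dppa3*, also called *Stella* or *PGC7*, encodes a protein of germ cells, oocytes and a part of ESCs that protects DNA from loss of methylation in the zygote. It lies at chr6:122576428-122580290 on the plus strand with 4 exons. Its promoter is shown because the TSS share of *Dppa3* was the highest of the 8 in both knockouts.

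*Dppa3* promoter, chr6:122576128-122576427, plus strand: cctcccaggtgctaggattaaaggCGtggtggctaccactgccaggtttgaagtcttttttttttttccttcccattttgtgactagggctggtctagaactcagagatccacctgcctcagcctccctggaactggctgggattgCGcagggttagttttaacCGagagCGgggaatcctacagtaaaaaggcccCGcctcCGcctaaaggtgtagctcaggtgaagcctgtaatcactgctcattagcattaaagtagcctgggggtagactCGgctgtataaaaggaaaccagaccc

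Its 7 CpGs held 48.7% of 78 reads in *Dnmt3a* KO cells and 71.9% of 135 reads in *Dnmt3b* KO cells, and they were not alike. The CpG at -154 had 40.0% of 10 reads (16.8 to 68.7) and 100% of 24 reads (86.2 to 100). The CpG at -130 had 16.7% (3.01 to 56.4) and 88.5% (71 to 96.0). The CpG at -98 had 66.7% and 61.9%, and the one nearest the TSS, at -26, had 23.1% (8.18 to 50.3) and 0 of 15 reads (0 to 20.4). Of the 7 CpGs, those at -154 and -130 had intervals that did not overlap between the knockouts.

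Within 1 kb of the *Dppa3* TSS, 41 CpGs gave 49.1% (45.4 to 52.8) in *Dnmt3a* KO cells and 78.9% (75.7 to 81.7) in *Dnmt3b* KO cells. The difference of 29.8 points (24.9 to 34.4) exceeded that of 83.3% of all genes and of 79.6% of genes with intermediate CpG content. Further inside the transcript the level was first lower. The bin starting at 1500 bp held 17.1% and 69.8%, and the bin starting at 2000 bp, with 21 CpGs, held 15.3% and 34.8%. Towards the 3' end the level was higher again, with 40.3% and 91.3% in the bin starting at 3000 bp. The bin starting at 3500 bp, which runs past the transcript end, held 66.0% and 87.9%. The region with a credible difference at this gene, 4 CpGs in 51 bp from 1573 to 1623 bp, is shown.

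*Dppa3* intron region, chr6:122578001-122578051, plus strand: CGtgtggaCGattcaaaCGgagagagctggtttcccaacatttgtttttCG

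This region held 5.56% of 162 reads in *Dnmt3a* KO cells and 65.1% of 106 reads in *Dnmt3b* KO cells, and its 4 CpGs ranged from 0 to 17.1% and from 54.3% to 76.5%. The transcript as a whole held 33.3% and 64.0%. Outside it the shares were higher than this, with 45.4% and 75.1% upstream and 39.7% and 68.5% downstream. A pair of bins was low in both knockouts. The bin starting at -2000 bp held 0 of 98 reads (up to 3.06%) and 7.83% over 4 CpGs, and the bin starting at 7000 bp held 9.29% and 10.7% over 11 CpGs.

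*Dppa5a*, or *Esg1*, encodes an RNA-binding protein with a KH domain that is restricted to early embryo and pluripotent cells. It lies at chr9:78214859-78215984 on the minus strand with 3 exons. Around the TSS the shares were 10.9% (9.17 to 13.0) and 27.9% (25.3 to 30.6), and over the transcript 13.1% (11.1 to 15.4) and 33.3% (30.3 to 36.5). All 29 CpGs of its transcript lie in stretches with near-identical copies elsewhere in mm9 (at least 95% identity over 100 bp), as do 27 of 41 within 1 kb of the TSS, and the part of reads from copies was not tested. Without them, the 14 remaining CpGs near the TSS gave 1.19% and 18.6%, a difference of 17.4 points in place of 17.0. For the transcript no value was left. The flanks were among the lowest of all genes in *Dnmt3a* KO ESCs. From 10 kb to 1 kb upstream, 7.01% (6.02 to 8.14) and 41.7% (39.8 to 43.6) of reads were methylated. Of all genes, 0.635% had a lower upstream level in *Dnmt3a* KO cells and 7.15% did in *Dnmt3b* KO cells. The outer part of this stretch is the 3' part of *Ooep*, a gene of the oocyte on the same strand. An upstream region outside *Ooep* is shown, since its 4 CpGs were well covered and it has no exact match of 50 bases elsewhere.

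*Dppa5a* upstream region, chr9:78221103-78221236, minus strand, -5252 to -5119 from the TSS: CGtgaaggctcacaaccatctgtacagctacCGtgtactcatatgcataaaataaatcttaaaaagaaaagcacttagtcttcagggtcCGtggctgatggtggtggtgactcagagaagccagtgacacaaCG

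It held 2.11% of 142 reads and 54.2% of 166 reads, with single CpGs from 0 to 8.82% in *Dnmt3a* KO cells and from 39.1% to 68.3% in *Dnmt3b* KO cells. No CpG of the region was fully methylated in either knockout.

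*Gdf3* encodes a secreted ligand of the TGF-beta family that, like Nodal, signals through activin receptors. It lies at chr6:122555421-122560105 on the minus strand with 2 exons. Its TSS window gave 1.38% (0.75 to 2.52) and 5.93% (4.38 to 7.97), a difference of 4.55 points (2.63 to 6.69) that was smaller than in most genes of its CpG class (15.9% had a smaller one). It was 0.707 points on the minus strand, 7.57 points on the plus strand and 7.98 points as a mean of CpG ratios. In *Dnmt3b* KO ESCs the low bins lay inside the gene, while in *Dnmt3a* KO ESCs the low stretch began before it, at -1009 bp. From 0 to 2500 bp, the 5 bins of *Gdf3* held at most 0.356% in *Dnmt3a* KO cells and 3.78% in *Dnmt3b* KO cells, while the bin just upstream of the TSS held 2.27% and 51.1% on 4 CpGs. Over the transcript the shares were 2.95% (2.28 to 3.82) and 17.1% (15.5 to 18.8). Upstream, *Gdf3* had 45.1% and 81.8%, the highest upstream level of the 8 genes in *Dnmt3b* KO ESCs. The upstream window shares 3678 bp with that of *Dppa3*, so that these are not independent values. The downstream window contains the TSS of *Apobec1*, an RNA-editing cytidine deaminase gene, which held 3.71% and 19%.

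*Fgf4* encodes the growth factor that drives ESCs to leave the naive state through ERK signalling. It lies at chr7:152047291-152051148 on the plus strand with 3 exons and a promoter of high CpG content. At its TSS, 120 CpGs gave 1.02% (0.678 to 1.52) and 1.86% (1.33 to 2.59), a difference of 0.843 points (0.114 to 1.64). The transcript held 0.481% (0.287 to 0.806) and 5.31% (4.45 to 6.31), and in its first 1.5 kb no bin passed 0.203% in either knockout. Further on, the level in *Dnmt3b* KO ESCs was higher. In the bin starting at 1500 bp it was 3.85% against 0 of 318 reads (up to 0.943%), and in the bin starting at 2000 bp 5.21% against 0.772%. It was 13.8% in the bin starting at 2500 bp against 0 of 177 reads (up to 1.69%), and 48.3% in the bin starting at 3500 bp against 8.33%. The bin starting at 6000 bp had 0 of 121 methylated reads (up to 2.48%) in *Dnmt3a* KO cells and 41.3% in *Dnmt3b* KO cells. Upstream, 13.5% (11.8 to 15.6) and 51.0% (48.5 to 53.5) differed by 37.5 points, more than in 91.6% of genes.

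The width of the low stretch around the TSS was measured as the run of CpGs with a running mean over 5 CpGs under 20%. It was longer in *Dnmt3a* KO ESCs for 7 of 8 genes and absent in both knockouts at *Dppa3*. Over all 21776 genes it was longer in *Dnmt3a* KO for 63.9%, and for 97.6% of the 14254 genes that had such a stretch in either knockout, so a longer stretch is not particular to these genes. At *Zfp42* it measured 15445 bp in *Dnmt3a* KO cells and 2374 bp in *Dnmt3b* KO cells, and at *Fgf4* 8814 bp and 3450 bp. *Dppa5a* had 8367 bp and 471 bp, *Klf2* 7965 bp and 2136 bp, and *Nanog* 4705 bp and 547 bp. *Utf1* differed least, with 4157 bp and 3507 bp. At *Gdf3* it was 4493 bp in *Dnmt3a* KO, and none was found at the TSS of *Dnmt3b* KO ESCs, although the bins inside the gene were low. The running mean centred on the CpG nearest the TSS, at 74 bp, reached upstream to a CpG at -350 bp with 62.5% and was 25.2%. With a limit of 30% the *Gdf3* stretch in that knockout was 2803 bp. With a running mean over 3 CpGs and a limit of 20%, the mean at that CpG was 17.5% and the stretch was 1 bp. The lengths depended on the limit. With 10% in place of 20%, *Zfp42* had 10389 bp and 1763 bp, *Klf2* 5185 bp and 1384 bp, and *Fgf4* 4181 bp and 2633 bp. With the same limit, *Dppa5a* had 2498 bp and *Nanog* 1364 bp in *Dnmt3a* KO cells and neither had a stretch in *Dnmt3b* KO cells. With 30%, *Nanog* had 7254 bp and 615 bp, and with a running mean over 3 CpGs *Dppa5a* had 4881 bp and 131 bp. The count of 7 genes held with limits of 10% and 30% and with a running mean over 3 CpGs, where 56.8%, 67.6% and 62.5% of all genes had the longer stretch in *Dnmt3a* KO. Of the genes with a stretch in either knockout, 90.5%, 98.9% and 94.1% did.

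**Figure D4:**
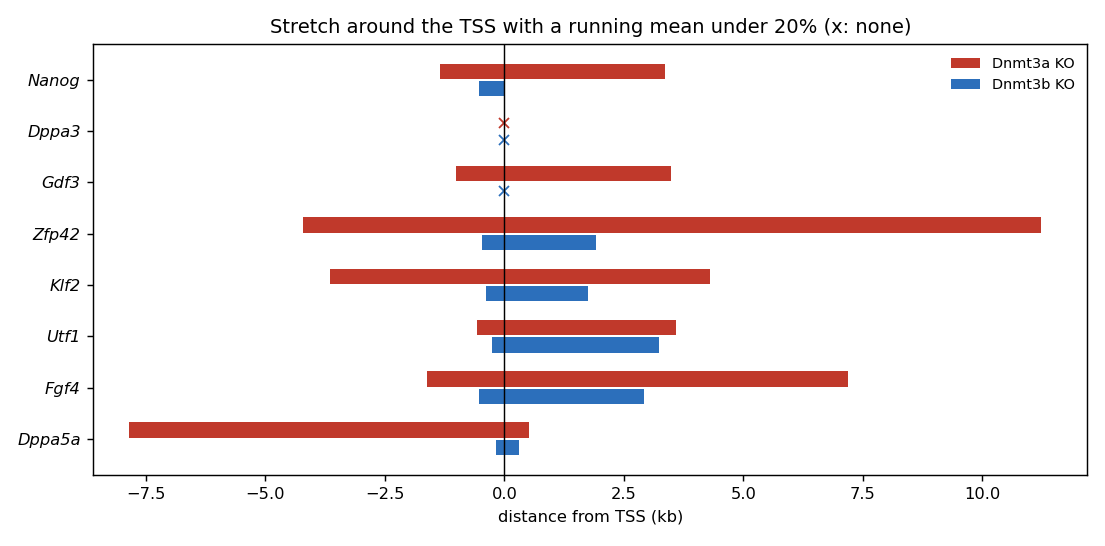
Extent of the low stretch around the TSS (kb from the TSS) for the 8 genes, red for *Dnmt3a* KO and blue for *Dnmt3b* KO, where a running mean over 5 CpGs stayed under 20%. A cross marks no such stretch. The red bar is the longer one for 7 of 8 genes, against 63.9% of all genes and 97.6% of genes with such a stretch in either knockout. It runs from 4157 bp at *Utf1* to 15445 bp at *Zfp42*.

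*Gdf3*, *Dppa3* and *Nanog* are neighbours on chromosome 6. The TSS of *Dppa3* lies 16.3 kb from that of *Gdf3* and 81.2 kb from that of *Nanog*. Over the 119 kb that hold their windows, 1332 CpGs gave 26.3% in *Dnmt3a* KO cells and 62.3% in *Dnmt3b* KO cells, and each of 24 steps of up to 5 kb was lower in *Dnmt3a* KO, by 13.6 to 54.9 points. The share of such steps that were lower over the genome was not computed. Steps under 10% in *Dnmt3a* KO ESCs were found at 3 places. One pair was at the *Gdf3* transcript (2.95% and 17.0%) and the step beside it, which holds the *Apobec1* TSS (9.95% and 35.2%). Another was at the *Nanog* TSS (6.26% and 36.5%) and the step before it (3.91% and 36.4%). The remaining pair, from -47165 to -37166 bp of the *Nanog* TSS, held 4.49% and 40.6%, and 9.74% and 55.2%, with 81 and 82 CpGs and no annotated protein-coding gene. In *Dnmt3b* KO ESCs the last step, downstream of *Nanog*, was also low, with 34% against 20.4% in *Dnmt3a* KO ESCs. Enhancers of *Nanog* are known upstream of the gene in ESCs, and whether these steps hold one was not tested.

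**Figure D5:**
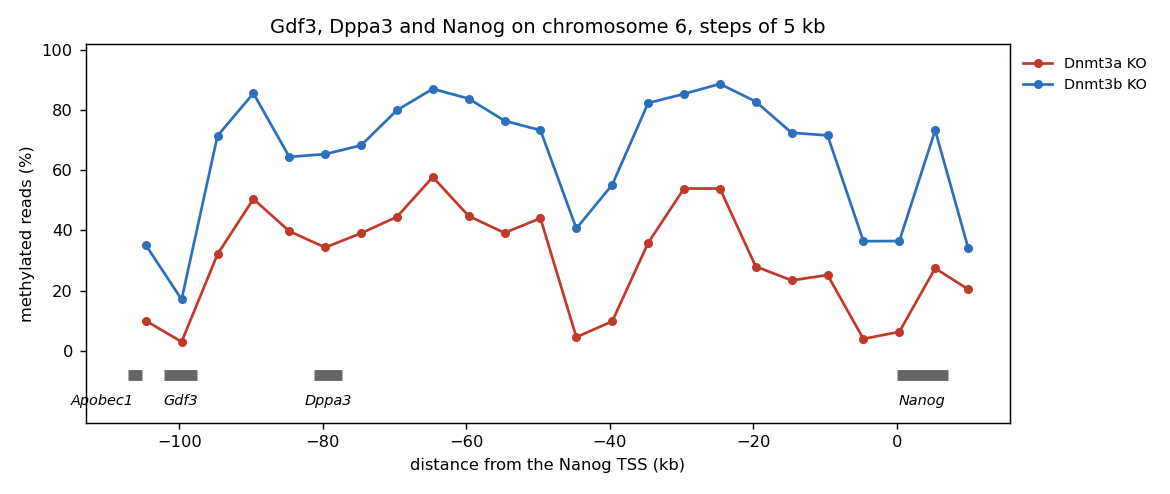
Share of methylated reads (%) in steps of 5 kb across *Gdf3*, *Dppa3* and *Nanog*, by distance from the *Nanog* TSS (kb), red for *Dnmt3a* KO and blue for *Dnmt3b* KO, with grey bars for the genes. Red lies below blue in each of 24 steps, a count with no share over the genome beside it, and both dip between *Dppa3* and *Nanog*, to 4.49% and 40.6%.

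At the level of single CpGs, 2115 of 2326 CpGs in the 8 windows were covered in both knockouts. Of these, 439 (20.8%) had a credible difference above 0.2 with *Dnmt3a* KO lower, against 16.8% of CpGs over the genome and 17.8% over the windows of all genes, and 0 had one in the other direction (0.0607% over the genome). With a limit of 0.1 the share was 29.3%, against 29.0% over the genome. In the TSS windows of all genes the share was 5.11%, and it was 12.1% at *Nanog*, 19.5% at *Dppa3* and 0% of 120 CpGs at *Fgf4*. By gene, the share ran from 12.6% at *Utf1* and 12.8% at *Klf2* to 37.9% at *Nanog*. In the *Nanog* upstream 10 kb it was 43.3%, against 16.5% over the upstream stretches of all genes, and in the *Zfp42* downstream 5 kb 56.7% of 30 CpGs, against 17.4%. *Klf2* downstream lay between them, with 46.2% of 39 CpGs, and these were the highest flanks. *Zfp42* upstream (10.8%) and *Utf1* downstream (10.3%) lay below the shares of all genes, and the other flanks lay above them. No CpG passed in the introns of *Klf2* (22 CpGs), *Utf1* (7), *Fgf4* (35) and *Dppa5a* (11), against 18.7% over the introns of all genes. In the introns of the other genes the share was 2.33% at *Gdf3*, 29.4% at *Zfp42*, 33.9% at *Dppa3* and 38.3% at *Nanog*. There were 20 regions at 6 of 8 genes, with 9 at *Nanog*, 4 at *Dppa5a*, 3 at *Zfp42*, 2 at *Klf2* and 1 each at *Dppa3* and *Utf1*, and none at *Gdf3* or *Fgf4*. Over all genes, 66.2% had at least 1 region lower in *Dnmt3a* KO in their window, so the count of genes is near the background. Calls and regions were not recomputed without CpGs in near-identical copies. At *Nanog* such copies hold 51 of 126 CpGs from 10 kb to 1 kb upstream and 34 in the transcript.

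Fully and partly methylated CpGs were spread unevenly over the genes. Among CpGs with at least 10 reads, 0.837% at *Nanog* and none at *Dppa5a* had a level of 80% or more in *Dnmt3a* KO ESCs, where *Dppa3* had 7.22%. In *Dnmt3b* KO ESCs, the same class held 28.0% at *Nanog*, 9.04% at *Dppa5a* and 49.5% at *Dppa3*. Levels between 20% and 80% held 56.5% of CpGs at *Zfp42* and 55.4% at *Dppa5a* in *Dnmt3b* KO ESCs, and 61.9% at *Dppa3* in *Dnmt3a* KO ESCs. At *Zfp42* the minimum of 10 reads kept 191 of 344 CpGs, and 43 of 157 upstream. Its shares thus leave out most of the upstream stretch. Shares of these classes over other genes are not given.

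Near-identical copies also touch *Nanog*, *Dppa3*, *Gdf3* and *Zfp42*, and in the TSS windows and transcripts none was found at *Klf2*, *Utf1* and *Fgf4*. Without such CpGs the *Nanog* transcript difference was 35.5 points in place of 37.5. At *Dppa3* 32 CpGs of the transcript were affected, and without them the difference was 36.4 points in place of 30.8. The *Zfp42* transcript difference was 30.1 points without its 46 CpGs, and that of *Gdf3* 12.7 points without its 4. In the flanks, copies held from 4 of 118 upstream CpGs at *Utf1* to 105 of 132 at *Zfp42*, a search added after seeing the data. Without them the upstream difference was 35.3 points at *Nanog*, 40.6 points at *Zfp42* and 30.1 points at *Dppa5a*, in place of 44.0, 29.5 and 34.7 points, and the other flank differences stayed within their intervals. The *Zfp42* value rests on the 27 CpGs left, only a part of that stretch. All 8 genes still passed 20 points upstream, and the same 6 downstream.

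OCT4 and SOX2 bind side by side at many ESC enhancers. Their composite motif, searched on both strands as CNTTGT directly followed by NATGC, occurred 2 times in the 8 windows. One match, CATTGTAATGC on the minus strand at chr6:122657435-122657445, lies -146 bp from the *Nanog* TSS inside the printed promoter. The 7 CpGs within 250 bp of it held 1.80% and 11.6%. The other, CATTGTTATGC on the minus strand at chr7:147131584-147131594, lies 1834 bp from the *Utf1* TSS, where no methylated read was found at 7 CpGs. Of all protein-coding genes, 1.01% had a match within 1 kb of the TSS, and 0.296% of all 500-bp stretches of the gene windows had one. A match is a sequence and not a measured binding site.

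Of 29 other genes of the pluripotency network, 28 could be measured at the TSS. In this list, 7 genes passed 20 points, a share of 25%, against 33.3% of all genes, and the median difference was 2.49 points, against 8.60 points over all genes. The largest were *Lefty2* (15.0% and 70.2%, 55.2 points), *Tcl1* (53.4 points) and *Esrrb* (49.5 points). The smallest were *Mycn* (-1.66 points), *Rif1* (-0.394 points) and *Pou5f1*, the gene of OCT4 (-0.343 points), all with TSS shares under 3% in both knockouts. Of 12 marker genes of other cell types, none passed 20 points at the TSS. Of these, 9 have promoters of high CpG content, a class in which 1.78% of genes passed. The markers had a median of 1.63 points and ranged from -1.06 points at *Gata6* to 7.68 points at *Fgf5*. By the levels of TSS window and transcript in both knockouts, the genes most like *Nanog* among 19471 were *Klhl34* (distance 3.04 points), *Serf1* (3.59) and *Rcor2* (4.26). The genes most like *Dppa3* were *Guca1a* (2.24 points), *1700027A23Rik* (2.57) and *Iqcf5* (3.94). These distances use all CpGs. Without CpGs in near-identical copies, the *Nanog* transcript held 7.85% and 43.4% in place of 17.9% and 55.4%. That of *Dppa3* held 31.2% and 67.6% in place of 33.3% and 64.0%. The nearest genes were not searched again with these values and could differ.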

How the data were processed

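Paired-end bisulfite reads were aligned to mm9 with BSMAP (both also named in the submitters' processing notes), technical bias was removed with BSeQC, and methylated and total read counts per CpG were obtained with the mCall module by the authors, who merged the 3 libraries of each genotype. The deposited tables hold these counts, in total and by strand, and their ratio as a fraction from 0 to 1, which was recomputed from the counts. Merging removes replicate error. Total counts were 689787192 (*Dnmt3a* KO) and 667658814 (*Dnmt3b* KO) reads over CpGs. Here, CpGs with at least 3 reads in both knockouts were summed per region with Python 3.11.15, NumPy 2.4.6, SciPy 1.17.1 and pandas 2.3.3. Transcripts came from GENCODE M1 (CCDS transcripts first, then the longest). Single CpGs were called where the 95% interval of the difference of Beta posteriors lay beyond 0.2, with counts over 200 scaled to 200, and the procedure was tested on simulated data. Copies were searched with BLAST 2.17.0. RefSeq promoters, found by symbol for 5 of the 8 genes (*Nanog*, *Zfp42*, *Klf2*, *Utf1* and *Fgf4*), were matched to mm9 by sequence. Named genes were the 8, the neighbours in their windows, the 3 largest and 3 smallest of a list of 29 network genes, the extremes of 12 markers, and the 3 most similar genes of *Nanog* and *Dppa3*. The genes and lists were chosen with earlier results of these data known. Alternatives were other read minimums, windows, strands, transcripts and call limits.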

Additional observations from a re-analysis of the deposited data

How the results depend on the processing

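The median TSS difference of the 8 genes, 6.86 points, became 4.58 with at least 10 reads per CpG, 10.7 as a mean of CpG ratios, 4.88 in a window of 500 bp and 11.4 in one of 2000 bp. The count of genes past 20 points at the TSS, 1, became 2 on the minus strand alone (with *Nanog*), 3 in the window of 2000 bp (with *Nanog* and *Dppa5a*), 3 with a limit of 10 points and 0 with one of 30 points, while the share of all genes, 33.3%, became 31.8%, 39.0%, 47.4% and 16.3%. The count over the transcript, 4, became 3 in the settings where *Dppa5a* lost its call and without copies. It was 5 with a limit of 10 points and 3 with one of 30 points, limits for which the share of all genes is not given. The median transcript difference of 17.2 points was 25.7 without the first 1 kb of each transcript and 12.7 without CpGs in near-identical copies, an alternative chosen after seeing the data that leaves 7 genes. The 439 CpG calls became 271 (12.8%, against 8.79% over the genome) with a credible difference of 0.3 and 619 (29.3%, against 29.0%) with one of 0.1. TSS differences of single genes were above 0 in 83 of 88 alternatives, the 5 others being at *Klf2*, *Utf1* and *Fgf4*, and transcript differences in 70 of 79, the 9 others being at *Utf1*. No paired analysis was possible because the libraries of each genotype were merged, and for the same reason no replicate could be left out. At 20 reads per CpG, single CpGs resolve only large differences.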
